A study of Homo sapiens with 3 samples.

Results

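Messenger RNA was compared between A498 cells given DRB, an inhibitor of transcript elongation, and A498 cells given its solvent, for 4 h. A498 is an established epithelial line from a human kidney carcinoma. Confluent cultures were placed in serum-free medium with gentamicin. The control received 0.08% DMSO, and the labels state no DMSO for the culture with 60 µM DRB, so DMSO and DRB cannot be told apart if only one culture held it. Another culture received the urinary tract strain E. coli 83972, at a concentration that the labels give in 2 ways, and its values are set beside the others where they help to read them. Each culture was measured on 1 Affymetrix 3′ array, so 2 of the 3 arrays enter the comparison. With no replicate there is no test, and precision is limited by the 1 array on each side. Of 49386 probe sets, 45259 carried exactly 1 gene symbol and made up the comparison, covering 18239 genes. All values are log2 signals, and a difference is the DRB value minus the control value of the same probe set.

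Of 9 kidney and renal carcinoma markers with a probe set, all 9 passed the filter on low signal on the mean of the control and DRB arrays. Vimentin (VIM) read 12.85 on the control and 12.79 on the DRB array, the epithelial keratin KRT18 read 11.63 and 11.67, and the kidney cadherin CDH6 read 8.51 and 8.66. The kidney lineage factor PAX8 read 7.07 and 6.10. LHX1, another kidney lineage factor, was the only marker past 2-fold, with 8.74 on the control and 7.09 on the DRB array. The general epithelial genes EPCAM (3.43 on the control) and CDH1 (4.17) did not pass the filter, so the epithelial label rests on the keratins here. Of the 5 leukocyte markers with a probe set 1 passed the filter, as did 2 of 5 endothelial and 1 of 5 fibroblast markers, and none of these differed by 2-fold. The leukocyte antigen PTPRC read 3.41 and the fibroblast gene LUM 2.70 on the control array. The arrays measured RNA of whole cultures, so fewer cells with a transcript and less of it per cell cannot be told apart.

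DRB, a benzimidazole riboside, blocks the kinase CDK9. RNA polymerase II pauses shortly after it starts on most genes, and P-TEFb, made of CDK9 and a cyclin T, releases it by phosphorylating pausing factors and the tail of the polymerase. HEXIM proteins bound to 7SK RNA hold part of P-TEFb inactive. When new transcripts stop being made, the RNA that remains at a later time depends on how quickly each transcript decays. Messages of many regulatory genes are known to decay quickly, whereas those of ribosomal proteins and metabolic enzymes are known to be long-lived.

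The promoters of early response genes and of ribosomal protein genes are shown first, because the first class had one of the lower medians of the comparison, the other lay near the median of all genes, and they differ in how often the motifs below were found. Each sequence holds 70 bases around the annotated start, from RefSeq, assembly GRCh38.p14, written 5′ to 3′ on the strand of the gene. In the first pair, early response genes that were at least 2-fold lower with DRB, the capitals mark the letters TATAAA. GADD45B lies at chr19:2476077-2476146 on the plus strand and RND3 at chr2:150487648-150487717 on the minus strand. In the other 3, ribosomal protein genes near the control value, the capitals mark the first short pyrimidine motif at the start. RPL37A lies at chr2:216498794-216498863, RPL28 at chr19:55385882-55385951 and RPS28 at chr19:8321446-8321515, all on the plus strand.
GADD45B: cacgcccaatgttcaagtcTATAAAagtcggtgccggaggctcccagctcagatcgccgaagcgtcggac
RND3: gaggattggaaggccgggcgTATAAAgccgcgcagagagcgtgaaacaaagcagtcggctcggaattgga
RPL37A: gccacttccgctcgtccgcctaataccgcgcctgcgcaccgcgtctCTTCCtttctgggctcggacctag
RPL28: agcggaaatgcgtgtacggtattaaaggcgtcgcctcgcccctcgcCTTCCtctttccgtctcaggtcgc
RPS28: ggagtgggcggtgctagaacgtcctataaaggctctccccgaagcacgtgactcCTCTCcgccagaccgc
GADD45B, a stress gene of the GADD45 family, read 7.83 on the control and 6.04 on the DRB array in its brightest probe set, while its other kept probe set differed by 0.32, so that the mean over both (−0.73) is under 2-fold. The kept probe sets of RND3 lay at −2.23 and −1.64, and RND3 read 10.13 and 8.49. RPL37A read 13.02 and 13.07, RPL28 12.97 and 12.99, and RPS28 12.89 and 12.92. By their brightest probe sets the 2 genes of the first pair were thus lower on the DRB array, and the 3 ribosomal genes lay within 0.05 of their control values.

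Promoters of 300 bases were matched to 9135 kept genes (82.1%). TATAAA on the gene's strand, 45 to 11 bases before the start, was found in 4 of 13 early response genes with a promoter (30.8%), in 3 of 15 immediate early factor genes (20.0%) and in 1 of 180 ZNF genes, against 1 of 58 ribosomal protein genes (RPS28, printed above) and 2.43% of all 35116 promoters in the table. Counted by gene, 2.59% of the 9135 kept genes had this match. The 4 early response genes with this match did not all differ in one direction: GADD45B and RND3 differed by −1.79 and −1.64, and CCN2 and PPP1R15A by 0.43 and 0.69. Pyrimidine motifs (CTTTC or CTCTT or CTTTT or CTTCC or CTTCT or CTCTC, which can overlap each other, searched on the gene's strand from 5 bases before to 15 after the start) were found in 50 of 58 ribosomal protein genes (86.2%), against 15.3% of all promoters, or 21.6% of the 9135 kept genes when counted by gene. Across all kept genes these letters went with small differences. Of 237 kept genes with TATAAA in that window 33 (13.9%) were at least 2-fold lower. With TATAAA anywhere in the 300 bases the share was 11.7% (521 genes), against 10.2% without it. With TATAAA on either strand it was 11.5% (797 genes). These were 8.72% of kept genes with a promoter, while 11.5% of all promoters in the table had it. The share was 9.54% of 1971 genes with a pyrimidine motif and 10.5% of those without. Over 4 bins of genes, from the fewest to the most CpG dinucleotides in the promoter, the shares were 8.23%, 11.2%, 11.4% and 10.6%.

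Lower values prevailed on the DRB array. The filter kept 11121 genes whose mean of the control and DRB values reached 4.88, the median of all values. Of these, 1126 were at least 2-fold lower (10.1%) and 15 at least 2-fold higher (0.135%), while 8439 (75.9%) lay within 0.5 of the median difference of all kept genes, which was 0.05. There were 255 genes at least 4-fold lower and 40 at least 8-fold lower. A single gene, TLN1, was at least 4-fold higher, by 1 of its 2 probe sets. The quartiles of the difference were −0.34 and 0.23. The distribution had a long tail on the lower side, with a 5th percentile of −1.45 and a 95th percentile of 0.47. Among all 18239 genes, before the filter, 1197 were at least 2-fold lower (6.56%) and 15 higher (0.0822%). Of the 1126 lower genes, 215 (19.1%) were under the filter level on the DRB array, where signals lie near background and differences are compressed. The 2-fold line is no natural break: RBBP6 (−1.003) and MGAT2 (−1.002) lay just inside it, and KIF14 (−0.997) and ANKRD27 (−0.996) just outside.

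**Figure D1:**
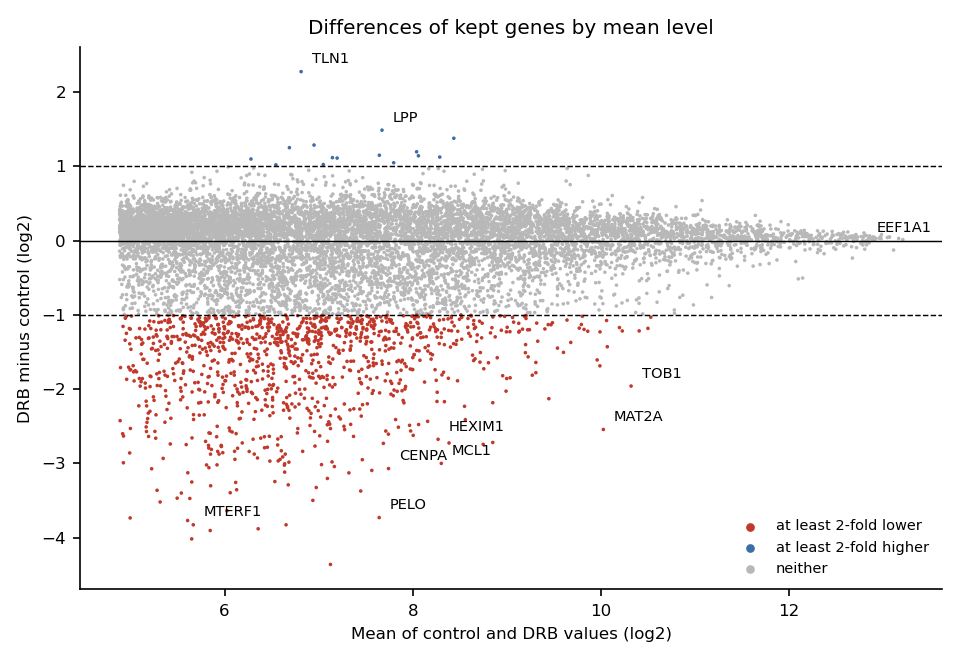
Difference between the DRB and control arrays (log2, y axis) against the mean of both values (log2, x axis) for the 11121 kept genes, with dashed lines at 2-fold. The 1126 genes at least 2-fold lower (red) spread over most of the range of signal and thin out at its upper end, and the 15 at least 2-fold higher (blue) lie in the middle.

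The genes that were lowest over 3 or more probe sets came from many functions. PNRC2, a coactivator that also links nonsense-mediated decay to decapping, read 8.69 on the control and 5.19 on the DRB array, and its 3 probe sets had a mean difference of −3.54 ± 0.91 (SD over probe sets). NABP1, a single-stranded DNA binding protein of the damage response, read 7.84 and 4.21 (mean −3.39 ± 0.29, 3 probe sets). NUFIP2, a partner of the fragile X protein, read 8.996 and 6.43 (mean −2.83 ± 0.33, 5 probe sets). The same rule gave FSAF1 (mean −2.90 ± 0.26), C3orf38 (−2.79 ± 0.35), KLHL9, an adaptor of a cullin ubiquitin ligase (−2.74 ± 0.95), and PIK3R1, the regulatory subunit of PI3 kinase (−2.64 ± 0.30). It also gave PHLDA1, a growth factor-responsive gene (−2.64 ± 1.27), the kinetochore gene MIS12 (−2.52 ± 0.62) and the zinc finger gene ZNF146 (−2.50 ± 0.23). PHLDA1 shows how the size can depend on the probe set: its brightest one over the 3 arrays differed by −1.13 and its lowest by −4.18. The one that read highest on the control array (10.66) differed by −2.34.

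Genes of the system that DRB inhibits were among the lower ones. In the class of P-TEFb, its inhibitors on 7SK RNA and the kinases of the polymerase tail, 8 of 16 kept members were at least 2-fold lower, 0 were higher and the median was −0.70. HEXIM1, which holds P-TEFb inactive, read 9.61 on the control, 8.48 with E. coli 83972 and 6.93 with DRB. That is 6.39-fold lower with DRB than in the control (−2.68), and its 5 probe sets all lay between −2.68 and −2.004. MEPCE, the enzyme that caps 7SK RNA, read 8.45 on the control and 6.39 on the DRB array (−2.06). HEXIM2, the paralogue of HEXIM1, read 7.34 and 5.86 (−1.48). LARP7, which binds the end of 7SK RNA, differed by −0.09, so the parts of the inhibitory complex did not differ alike.

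The cyclins and kinases of this class divided as well. CCNT2 (cyclin T2) read 6.06 and 4.20 (−1.86), but CCNT1 (cyclin T1) read 6.10 and 5.75 (−0.35). CDK9, the kinase that DRB inhibits, read 7.87 and 6.82 (−1.06), with a mean of −0.64 ± 0.82 over 3 probe sets, a spread larger than the mean, and −0.92 with quantile normalization. CDK13, a tail kinase, differed by −1.29, CDK8 of the Mediator kinase module by −1.28 and CDK7 of TFIIH by −1.07. CDK12, the relative of CDK13, differed by −0.32. At the other end MNAT1, a partner of CDK7, and CDK19, the paralogue of CDK8, differed by 0.23 and 0.25. CDK13, CDK8, CDK7, CDK12 and LARP7 are given beyond the naming rule to complete the complexes.

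**Figure D2:**
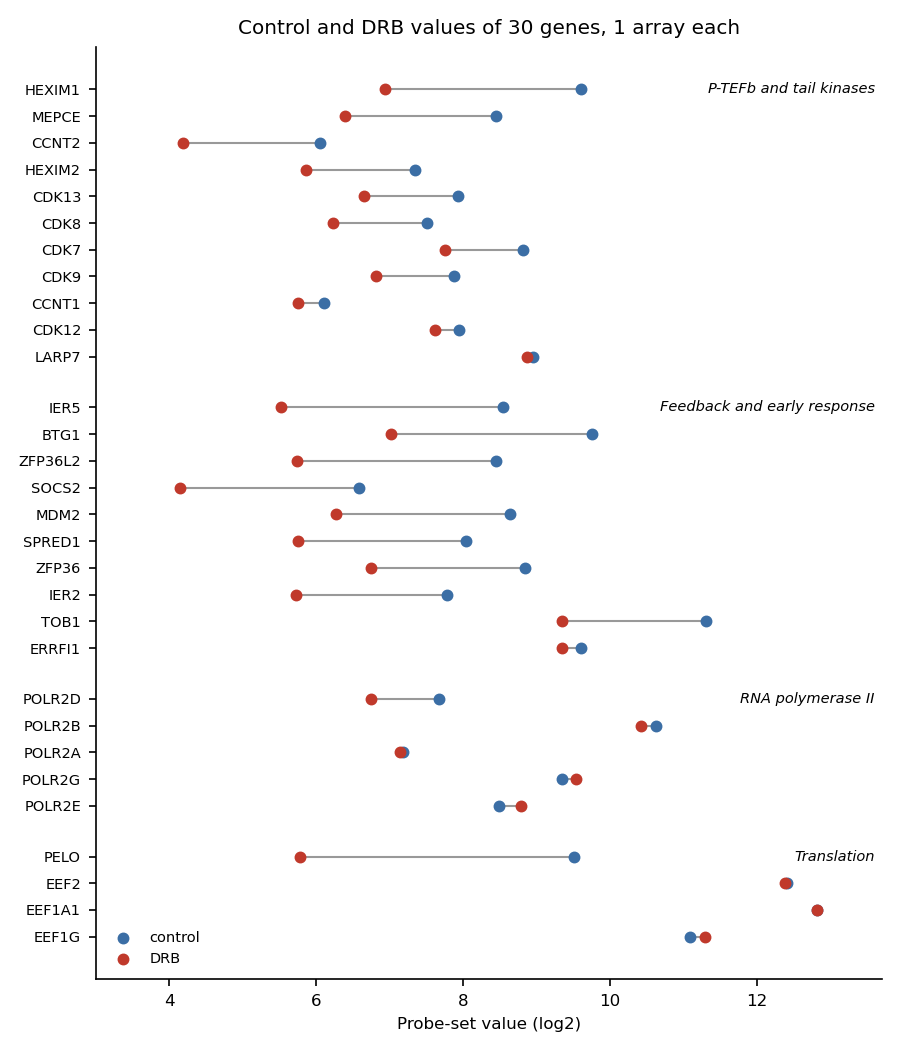
Log2 probe-set values of 30 genes on the control array (blue) and the DRB array (red), grouped by function, each from the gene's brightest probe set; a grey line joins both arrays. Long lines mark HEXIM1, MEPCE, IER5 and PELO, whereas POLR2A, LARP7 and EEF1A1 are nearly superposed.

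The polymerase itself stood near the control. All 12 subunits of RNA polymerase II were kept, 0 were at least 2-fold lower, 11 lay near the median of all genes and their median was 0.11. The largest subunit, POLR2A, read 7.19 and 7.14, and POLR2B read 10.62 and 10.43. POLR2D, part of the dissociable stalk, was lowest at 7.67 and 6.75 (−0.92). Pausing and elongation factors were similar, with 1 of 26 at least 2-fold lower and a median of −0.12. The one lower member was EAF1, a partner of the ELL elongation factors, at 6.52 and 4.54 (−1.98). IWS1 (−0.97), LEO1 of the PAF complex (−0.96) and AFF4, the scaffold of the super elongation complex (−0.95), lay just under 2-fold. NELFCD of the pausing factor NELF (0.21) and the histone chaperone SUPT6H (0.25) were at the other end.

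Among factors that recruit the polymerase, 25.8% of general initiation factors, 26.9% of Mediator subunits and 16.7% of SAGA subunits were at least 2-fold lower. The share was 25% for subunits of polymerases I and III, and 10.1% for all kept genes. Of 31 general initiation factors 8 were at least 2-fold lower (median −0.27). TAF1A, a subunit of the polymerase I selectivity factor, read 7.27 and 4.45 (−2.81), TAF4 of TFIID read 7.36 and 4.97 (−2.39), GTF2E1 of TFIIE read 8.31 and 5.95 (−2.36), and the TBP relative TBPL1 read 7.77 and 5.48 (−2.28). TAF15 and the TFIIH subunit GTF2H5 differed by 0.55 and 0.56. Mediator, the coactivator between factors and polymerase, had 7 of 26 members lower (median −0.43), with MED17 (7.36 and 4.96), MED7 (7.57 and 5.45), MED23 (7.95 and 6.30) and MED13 (8.65 and 7.02) lowest. The 4 probe sets of MED13 gave a like size (−1.63 to −1.12), while those of MED17 lay at −2.40 and −0.23 and those of MED23 had a mean of −0.99. Polymerases I and III had 4 of 16 members lower (median −0.41), among them POLR3F (7.23 and 5.33), POLR3B (7.57 and 5.93) and POLR1B (8.36 and 7.05). The coactivator SAGA had a median near that of all genes (−0.06), yet 3 of its 18 members were lower. TADA1, its core adaptor, read 7.80 and 3.89 (−3.91), the latter under the filter level, and ATXN7 of its deubiquitinase module read 6.96 and 4.61 (−2.35).

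Feedback and response genes had the largest share of lower members among the 15 themes into which the classes were sorted. Over 11 classes of feedback and response genes, 56 of 182 kept members were at least 2-fold lower (30.8%), with a median of −0.44, against 10.1% and 0.05 for all kept genes. Of the Sprouty, SPRED and SOCS inhibitors of receptor signalling, 6 of 8 kept members were lower, with a median of −1.61. SOCS2 read 6.59 on the control and 4.14 on the DRB array, SPRED1 8.04 and 5.75, SOCS6 7.54 and 5.33, and SOCS4 7.34 and 5.58. SPRY1 (5.68 and 5.26) and CISH (5.72 and 5.70) were nearer the control but are dim. Only 8 of 15 members with a probe set passed the filter, and the median over all 15 was −0.42. Both kept members of the anti-proliferative BTG and TOB family, which recruit deadenylases, were lower in each of their 2 probe sets. Over all 5 members of this family with a probe set the median was −0.16. BTG1 read 9.75 and 7.02 (−2.73), and TOB1 read 11.30 and 9.34 (−1.96).

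Early response genes that do not encode transcription factors had 12 of 18 members lower and 0 higher, with a median of −1.23. IER5 read 8.54 and 5.52 (−3.02), although its other probe set differed by −0.88. ZFP36L2 read 8.45 and 5.74 (−2.70) and its relative ZFP36 read 8.84 and 6.75 (−2.09), both proteins that bind AU-rich messages and promote their decay. IER2 read 7.78 and 5.73 (−2.05). The upper members of this class were CCN2, a matrix protein, at 5.42 and 5.86, and PPP1R15A, which directs dephosphorylation of eIF2α, at 6.07 and 6.76.

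Immediate early transcription factors stood apart from those genes in count, with 2 of 18 members lower, 13 near the median of all genes and a median of −0.25. Their share of 11.1% was near the 10.1% of all kept genes. KLF2 read 7.12 and 5.36 (−1.76), with its other probe set at −0.06. JUN, a subunit of AP-1, read 9.47 and 7.97 (−1.51), and all 4 of its probe sets lay between −3.11 and −1.24. KLF4 read 7.83 and 6.89 and FOSL2 read 8.47 and 7.86. JUND and FOSB, at 0.19 and 0.21, were the upper members. The difference between both classes was not tested.

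Other feedback classes showed a few strongly lower members in each. Of the RGS proteins, which switch off G protein signalling, 3 of 11 were lower, with RGS2 at 8.30 and 4.42 (−3.88) and RGS3 at 9.11 and 6.02 (−3.10; its 2 probe sets −3.10 and −3.04). The median over kept RGS genes was −0.63, but over all 21 with a probe set it was 0.05. TGF-β and BMP feedback genes had 6 of 17 lower (median −0.64): ID2, a helix-loop-helix inhibitor, read 7.38 and 4.50, the pseudoreceptor BAMBI 6.30 and 4.19, the inhibitory SMAD6 7.38 and 5.55 and the signal transducer SMAD1 8.49 and 7.05. The other inhibitory SMAD, SMAD7, read 6.12 and 6.75 (0.63). Of the dual-specificity phosphatases 3 of 15 were lower (median −0.44, or −0.10 over all 23 with a probe set). They were DUSP5 (8.55 and 6.00), DUSP11 (8.21 and 5.83) and DUSP4 (6.64 and 5.32). DUSP11 acts on RNA and not on MAP kinases. NF-κB subunits and inhibitors had 3 of 13 lower (median −0.24), with REL at 6.32 and 4.72, the inhibitor NFKBIE at 7.21 and 5.68 and TNFAIP3 at 8.02 and 6.76 (mean over its probe sets −0.79).

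Transcription factor families followed, with 89 of 346 kept members at least 2-fold lower (25.7%, against 10.1% of all kept genes). Of these members 2 were higher, and the median was −0.42. The C2H2 zinc finger genes named ZNF made up 213 of the 346, and 60 of them were lower (28.2%), near the share of the theme. Among the 213, 0 were higher and 167 lay below 0, with a median of −0.47. ZNF181 read 6.76 on the control and 3.69 on the DRB array, ZNF232 7.85 and 5.06, ZNF217 9.32 and 6.69, and ZNF770 8.33 and 5.89. The probe sets of ZNF232 lay at −2.78 and −2.18, whereas those of ZNF217 lay at −2.62 and 0.11. ZNF428 (6.93 and 7.45) and ZNF106 (7.23 and 7.75) were the highest. Over all 491 ZNF genes with a probe set, most of them under the filter, the median was −0.14. ZNF genes resemble each other in sequence, so probe sets may hybridize with more than one of them.

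The counts in other factor families varied, and nuclear receptors had 3 of 21 lower (14.3%, against 10.1% of all kept genes). ZBTB factors had 9 of 25 lower (median −0.53), with ZBTB6 at 7.78 and 6.00 and ZBTB24 at 6.31 and 4.59, and 1 higher, ZBTB20. Forkhead factors had 6 of 20 lower (median −0.43), led by FOXO1, a target of insulin signalling (6.26 and 3.73), and FOXQ1 (7.31 and 4.79). Their median over all 41 with a probe set was 0.07. Krüppel-like and SP factors had 5 of 17 lower (median −0.31), with KLF2 lowest and SP3 at 9.63 and 7.98 next. ETS factors had 3 of 17 lower (median −0.10), namely ELF2 (6.81 and 3.88), ETS2 (7.35 and 5.16) and ELF1 (8.15 and 6.99).

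Classes of RNA processing differed in their counts. Cleavage and polyadenylation factors had 6 of 18 kept members lower and a median of −0.78, or −0.43 over all 20 with a probe set. The poly(A) polymerase PAPOLG read 6.96 and 3.60 (−3.36), CSTF1 of the cleavage stimulation factor read 8.24 and 5.67 (−2.57), PCF11, which ends transcription, read 6.64 and 4.73 (−1.91), and CSTF2T read 7.08 and 5.46 (−1.62). The probe sets of PAPOLG (−3.36 and −0.22) and of CSTF1 (−2.57 to 0.20) disagreed in size. The major poly(A) polymerase PAPOLA, in contrast, read 9.05 and 9.43, with all 7 of its probe sets between 0.01 and 0.67. RBM proteins and CLK kinases, which include splicing regulators, had 10 of 37 lower (median −0.41). RBM7, a subunit of the nuclear exosome targeting complex, read 7.34 and 4.59, and RBM5, a regulator of splice sites in apoptosis genes, read 7.72 and 5.60 with 5 probe sets from −2.11 to −1.65.

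SR splicing factors had 1 of 11 lower but a median of −0.46, with SRSF8 at 6.30 and 5.09, SRSF6 at 9.73 and 8.76 and SRSF7 at 10.83 and 9.98. The spliceosome core had 1 of 45 lower, 39 near the median of all genes and a median of 0.02. PRPF38B (7.50 and 6.48, or −0.87 with quantile normalization) and its relative PRPF38A (7.73 and 6.74) were its lowest members, and PRPF8, the central scaffold, was its highest (8.78 and 9.37). The hnRNP proteins had 1 of 26 lower, PTBP3 (10.04 and 8.93), and 24 near the median of all genes. The 6 probe sets of PTBP3 ran from −1.11 to 0.30, with a mean of −0.20. Among enzymes of decay, the CCR4-NOT and PAN deadenylases had 3 of 14 lower (median −0.30) and the decapping, exosome and nonsense decay factors 5 of 29 (median −0.22). DCP2, the decapping enzyme, read 7.57 and 5.54 in its brightest probe set and its 2 probe sets lay at −2.04 and −1.73. The nonsense decay factor SMG8 read 8.81 and 6.79, and the decapping cofactor DCP1B read 7.45 and 5.51.

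Factors that express the mitochondrial genome were lower in 11 of 22 members, with a median of −0.97, and all 22 had passed the filter. MTERF1, which binds a termination site in mitochondrial DNA, read 7.58 on the control and 3.75 on the DRB array (−3.83). TEFM, the mitochondrial elongation factor, read 8.35 and 5.88 (−2.47), POLG2, the accessory subunit of the mitochondrial DNA polymerase, read 5.83 and 4.13 (−1.71), and FASTKD3, an RNA-binding protein of mitochondria, read 6.88 and 5.27 (−1.60). The mitochondrial RNA polymerase itself, POLRMT, read 7.46 and 7.69, and LRPPRC, which stabilizes mitochondrial messages, read 10.09 and 10.31. Classes of mitochondrial ribosomal proteins and respiratory complexes stood elsewhere. Of 76 mitochondrial ribosomal proteins 2 were lower, MRPS30 (8.87 and 7.46) and MRPS31 (7.52 and 6.39, or −0.99 with quantile normalization), and 67 lay near the median of all genes (median −0.06). Complex I had 0 of 34 lower (median 0.18), and complexes II to V had 0 of 39 (median 0.12).

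Cell cycle classes held 32 lower genes among 149 kept (21.5%, against 10.1% of all kept genes), with a median of −0.23. Cyclins and their kinases had 6 of 20 lower (median −0.53). CCNE2, a cyclin of entry into S phase, read 7.92 and 5.28 (−2.64), its relative CCNE1 read 8.22 and 6.96 (mean over its probe sets −0.91), the phosphatase CDC25A read 6.13 and 4.74, and CDKN1A, which encodes the inhibitor p21, read 11.02 and 9.80 (−0.92 by its plain-suffix probe set, whose name marks no shared sequence). CDK2 (0.14) and CDKN2A (0.25) were highest. E2F factors and partners had 4 of 13 lower (median −0.31): E2F6 (7.36 and 4.30), E2F8 (7.24 and 4.59), E2F5 (7.73 and 5.65) and E2F7 (8.38 and 6.79). E2F3, given beyond the naming rule, lay just under 2-fold, at −0.99 and −0.96 in its 2 brightest kept probe sets. E2F6 differed by −0.74 in its plain-suffix probe set, and the other probe set of E2F7 by 0.37 (mean −0.61). The pocket proteins RBL2 and RB1 differed by 0.38 and 0.39. Mitotic kinases and spindle genes had 7 of 27 lower and 24 below 0 (median −0.60), with the kinases AURKA (10.12 and 7.38) and TTK (8.48 and 7.02) and the kinetochore gene NDC80 (8.52 and 7.07) lowest. With only probe sets whose names carry no suffix for shared sequence (plain-suffix probe sets), the median of the mitotic class lay 0.11 above that of all genes over 5 members, and that of the E2F class 0.18 above over 6.

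Centromere proteins had a median near that of all genes (−0.04) and 5 of 19 lower. CENPA, the histone of centromeres, read 9.28 and 6.21 (−3.07), CENPC read 6.51 and 3.87 and CENPL read 8.43 and 6.03. Genes of the p53 pathway had 5 of 21 lower and 20 of 21 below 0 (median −0.72). MDM2, which targets p53 for degradation, read 8.64 and 6.27, with 5 probe sets from −3.36 to −0.13. CCNG2 read 7.02 and 4.84 and SESN1, a stress sensor, read 8.36 and 6.50. ZMAT3, an RNA-binding p53 target, was the exception at 7.45 and 8.12.

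In cell death genes 5 of 33 kept members were lower (15.2%, against 10.1% of all kept genes). MCL1, a survival member of the BCL2 family, read 9.80 and 6.80 (−3.001), and 3 of 19 family members were lower in all (median −0.18). The others were BCL2L13 (8.59 and 7.43, with probe sets from −1.16 to 0.34, a mean of −0.14, and 0.13 by its plain-suffix probe set) and BNIP1 (6.50 and 5.37). BCL2 read 5.43 and 5.93. The median of this family lay 0.07 above that of all genes with only plain-suffix probe sets, over 7 members. Of the caspases and their IAP inhibitors 2 of 14 were lower, CASP2 (9.21 and 8.08) and XIAP (8.97 and 7.87). The means over their probe sets, −0.80 and −0.62, were under 2-fold.

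The unfolded protein and ATF4 genes held both lower members and members near the control. Their median of −0.11 was close to that of all genes, but 9 of 22 were at least 2-fold lower (40.9%). The 4 lowest were PPP1R15B, the constitutive partner of the eIF2α phosphatase (8.57 and 4.74), the co-chaperone DNAJB9 (7.75 and 4.49), the factor CEBPB (10.21 and 7.49) and HERPUD1 of endoplasmic reticulum degradation (8.74 and 6.81). The highest, apart from PPP1R15A, was the lumenal chaperone CALR at 7.43 and 8.17. The HSP and CCT chaperone classes stood near the control. HSP70, HSP90 and small heat shock proteins had 0 of 20 lower, with a median of −0.00 and 19 near the median of all genes, and the CCT chaperonin and prefoldin had 0 of 14 lower. HSPA13 (9.08 and 8.33) was the lowest of the former. DNAJ co-chaperones had 4 of 37 lower (10.8%, near the 10.1% of all kept genes), among them DNAJB4 (9.30 and 6.82, 3 probe sets from −2.48 to −2.26) and DNAJB1 (9.38 and 6.94).

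In ubiquitin-dependent degradation, ligase adaptors had lower members and the proteasome had none. KLHL and KBTBD adaptors had 8 of 25 kept members lower (median −0.52), with KBTBD6 at 7.24 and 3.84, KLHL9 at 8.07 and 5.16 and KBTBD7 at 6.24 and 3.61. Their median over all 46 with a probe set was 0.07, and with a filter at the 75th percentile of all values it lay 0.02 above that of all genes over 6 members. TRIM ligases had 6 of 40 lower (15%, against 10.1% of all kept genes, with a median of −0.33), led by TRIM32 (7.76 and 4.36) and TRIM59 (7.50 and 4.20). Over all 62 TRIM genes with a probe set the median was −0.04. Ubiquitin-specific proteases had 5 of 34 lower (14.7%, median −0.32), with USP1, a regulator of DNA repair, at 9.96 and 8.11 and its 2 probe sets at −1.85 and −1.62. The proteasome had 0 of 33 lower and 31 near the median of all genes (median 0.02). PSMD12 (9.85 and 9.27) and PSMC6 (9.80 and 9.28) were its lowest subunits.

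**Figure D3:**
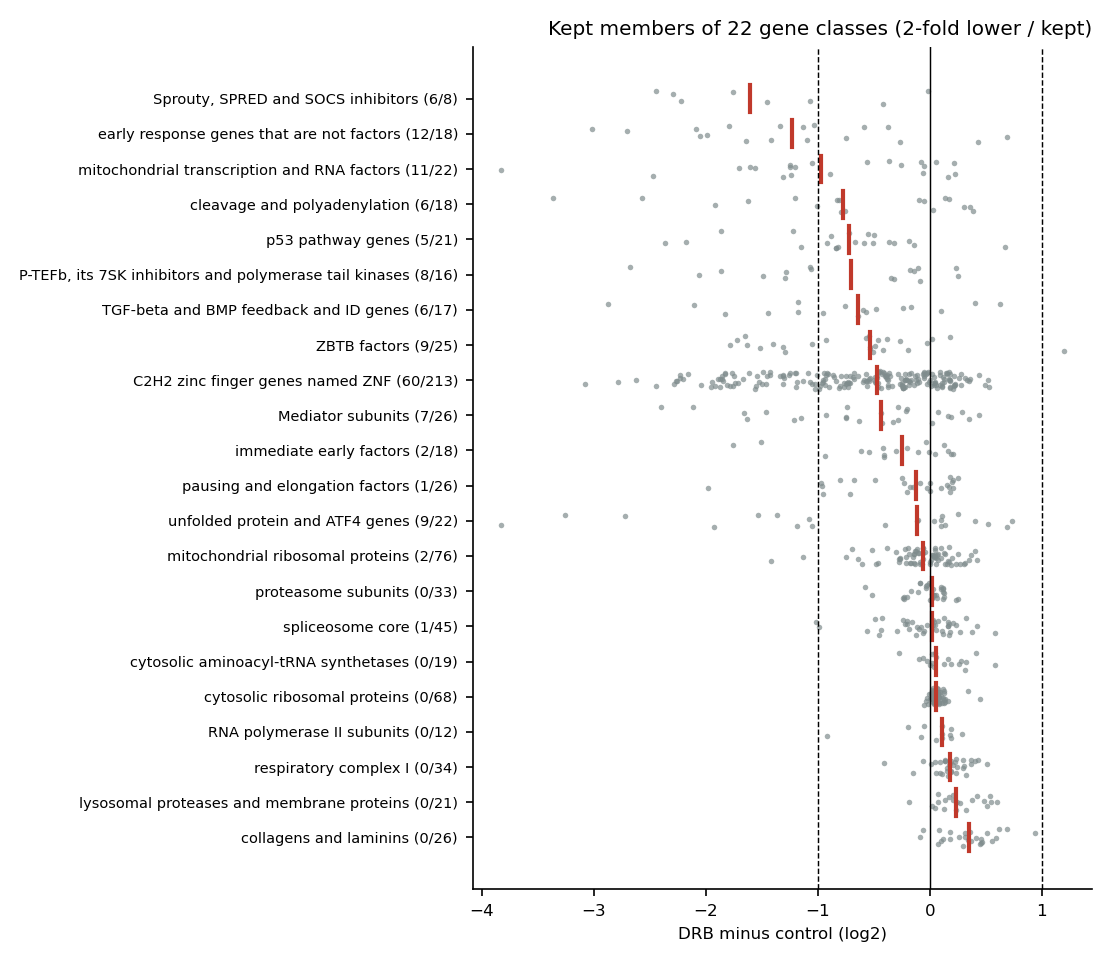
Differences between the DRB and control arrays (log2) of the kept members of 22 gene classes, 1 point a gene, with the class median in red, dashed lines at 2-fold, and the counts of members at least 2-fold lower and kept in brackets. Sprouty and early response genes lie mostly left of the 2-fold line, whereas all 68 cytosolic ribosomal proteins cluster around 0.

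Of 93 classes with at least 5 kept members, 67 had a median below that of all kept genes and 26 at or above it. In 22 classes over 25% of kept members were at least 2-fold lower, and in 20 classes none was. Themes with the smallest shares of lower genes were surface and matrix (2.19% of 319 kept genes), energy metabolism (2.74% of 146) and the secretory pathway (4.38% of 137). The translation theme had 8.05% of 261 lower, 11 of which were the mitochondrial genome factors above. Lower genes were not limited to dim ones: HEXIM1, BTG1, TOB1, AURKA and CEBPB read between 9.61 and 11.30 on the control array.

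Cytosolic ribosomal proteins differed little among themselves. All 68 kept members lay within 0.5 of the median of all genes, 0 were 2-fold lower and their median was 0.06. Their median level on the control array was 12.56, where the highest value of any probe set was 13.29. Whether differences are compressed so near the top was not tested. The lowest, RPL5, read 12.29 on the control and 12.24 on the DRB array, and RPL24, RPL14 and RPS9 lay between −0.04 and −0.02. RPL36 read 9.73 and 10.07. Several ribosomal protein genes have processed copies in the genome, so single members are uncertain. Cytosolic aminoacyl-tRNA synthetases had 0 of 19 lower (median 0.05), from RARS1 (10.49 and 10.22) to WARS1 (7.53 and 8.11). Translation initiation factors had 5 of 48 lower (10.4%, near the 10.1% of all kept genes; median 0.01). EIF1B read 8.02 and 6.15, with its 2 probe sets at −1.87 and −1.70, while EIF4B read 9.27 and 9.58.

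Metabolic enzymes of the cytosol and mitochondria were also near the control. Glycolysis had 0 of 17 lower and 17 near the median of all genes (median 0.08). LDHA read 12.69 and 12.68 and GAPDH 12.78 and 12.78, and the hexokinase HK2, lowest of the class, read 6.85 and 6.60. The tricarboxylic acid cycle had 0 of 15 lower (median 0.18), with IDH1 lowest at 10.66 and 10.48. In complex I, NDUFV3 read 9.38 and 8.97 and NDUFV1 read 8.15 and 8.66. In cholesterol synthesis 2 of 19 were lower (10.5%), a share near that of all kept genes: HMGCS1, the synthase before the rate-limiting step, read 9.42 and 7.53, and INSIG1, the sterol-regulated retention factor, read 10.78 and 9.61 (mean over its probe sets −0.76).

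Genes of secretion, lysosome, surface and matrix lay at the upper end, but this position was not particular to them. Families grouped by symbol root had medians of 0.25 (KRTAP, 26 kept genes), 0.23 (GPR, 24) and 0.18 (OR, 36). Over 4 bins of kept genes, from the lowest to the highest mean of both arrays, the medians were 0.11, −0.02, −0.01 and 0.06. Whether signal level accounts for the class medians below was not tested. Collagens and laminins had 0 of 26 kept members lower and a median of 0.35, or 0.21 over all 53 with a probe set. COL12A1 read 6.86 on the control and 7.79 on the DRB array and LAMA1 read 8.02 and 8.71, while COL7A1 read 8.84 and 8.78. Integrins had 1 of 13 lower, ITGB8 (7.53 and 6.51, probe sets at −1.02 and 0.20), and a median of 0.32, with ITGB1 at 12.72 and 12.73. Lysosomal proteases and membrane proteins had 0 of 21 lower (median 0.23), and the translocon and signal recognition class 0 of 26 (median 0.16). HLA class I and antigen processing had 0 of 15 lower (median 0.23), with B2M, the light chain of HLA class I, at 12.85 and 12.83. Solute carriers, the largest class with 227 kept members, had 5 lower (median 0.13), led by SLC38A2, an amino acid transporter, at 9.05 and 6.32. Actins, myosins and tropomyosins had 0 of 23 lower (median 0.13). Whether these medians lie above or below 0 depends on the scaling. The 7 class medians of this paragraph lay above the median of all genes with loess and with quantile normalization as well, and centring on spike-ins moves all genes alike.

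Replication-dependent histone genes are known for messages that end in a stem-loop without a poly(A) tail, and the 3′ labelling kit primes on poly(A). Of 60 with a probe set 10 were kept, 0 were 2-fold lower and the median was 0.27. H4C3 read 12.36 and 11.84, and H4C12 read 7.03 and 7.65.

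Within classes that stayed near the control, single members stood far below the rest. PELO, which rescues stalled ribosomes, read 9.51 on the control and 5.78 on the DRB array (−3.73), and both of its probe sets gave this size (−3.73 and −3.71). The other 11 translation elongation and termination genes lay near the median of all genes, with EEF2 at 12.41 and 12.37 and EEF1G at 11.09 and 11.30. EXOC8 read 7.66 and 3.64 (−4.02; its other probe set −2.25), against −0.17 for EXOC1, the next lowest of the 8 exocyst subunits, which tether secretory vesicles. MARS2, the mitochondrial methionyl-tRNA synthetase, read 6.86 and 3.13 (−3.74), next to −1.32 for YARS2, and the class median over 16 members was 0.00. EXOC8 and MARS2 were under the filter level on the DRB array, so their folds depend on how background was removed.

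**Figure D4:**
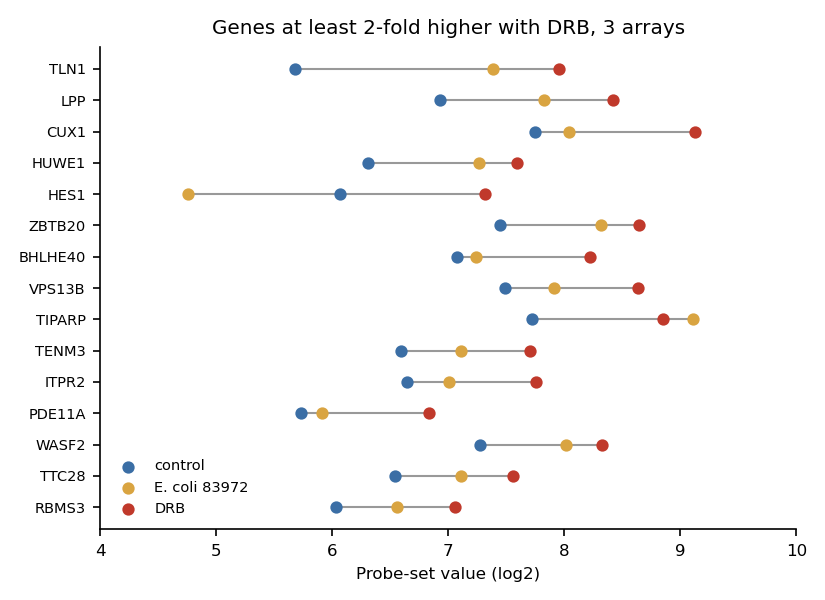
Log2 values of the 15 genes at least 2-fold higher on the DRB array than on the control, on the control (blue), E. coli 83972 (yellow) and DRB (red) arrays, 1 array each. For 13 genes the E. coli 83972 value lies between the others; HES1 is below the control and TIPARP above the DRB value.

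The 15 genes at least 2-fold higher with DRB differed by 1.02 to 2.28. Of the 9 with 2 or more kept probe sets, TLN1, LPP and ZBTB20 were also at least 2-fold higher by the mean over them. CUX1, HES1, VPS13B, TENM3, WASF2 and TTC28 were under 2-fold by that mean (0.65 to 0.89). The others have 1 kept probe set, so for them such a mean is the same value. TLN1, which encodes talin, a link between integrins and actin, read 5.68 on the control, 7.38 with E. coli 83972 and 7.95 with DRB. Its difference was 2.28 in the brightest probe set and 0.64 in the other. LPP, a LIM protein of focal adhesions, read 6.93, 7.83 and 8.42 on these arrays, with probe sets at 1.49 and 1.39. ZBTB20 read 7.44, 8.32 and 8.64, with probe sets at 1.20 and 1.32. LPP and ZBTB20 were the 2 genes whose kept probe sets were all at least 2-fold higher. HES1, a repressor downstream of Notch, read 6.06 on the control, 4.76 with E. coli 83972 and 7.31 with DRB, the only one of the 15 in which the treated arrays lay on opposite sides of the control. TIPARP, a mono-ADP-ribosyltransferase, read 7.72, 9.11 and 8.85, highest with E. coli 83972.

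The remaining higher genes differed by 1.02 to 1.38 and read between the other arrays with E. coli 83972. They were CUX1 (7.75 on the control, 8.04 with E. coli 83972 and 9.13 with DRB), HUWE1 (6.31, 7.26 and 7.59), the clock gene BHLHE40 (7.07, 7.24 and 8.22) and VPS13B (7.49, 7.91 and 8.63). TENM3 (6.59, 7.11 and 7.70), ITPR2 (6.64, 7.01 and 7.75), PDE11A (5.73, 5.91 and 6.83), WASF2 (7.27, 8.01 and 8.32), TTC28 (6.54, 7.11 and 7.56) and RBMS3 (6.04, 6.56 and 7.06) completed them. Both treated arrays are compared with the same control array, so a low control value alone would place both above it. Of the 15, 9 had 2 or more kept probe sets, and in all 9 every kept probe set lay above 0. These genes are named because they make up the whole count, beyond the naming rule. Of 94 classes, 3 held such a gene: ZBTB factors, circadian clock genes and focal adhesion genes, the last with TLN1 and LPP among 21 kept members.

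Disagreement between probe sets of one gene was the only available measure of error. It can also hold real differences between transcripts of a gene. Over 5940 genes with 2 or more kept probe sets, the plain SD of a difference was 0.30, with 0.41, 0.28 and 0.15 from the lowest to the highest of 3 ranges of signal, and the robust SD was 0.15. Variation between cultures, extractions and hybridizations is in none of them. Of 582 lower genes with 2 or more kept probe sets, 236 (40.5%) had all of them at least 2-fold lower and 477 (82.0%) had all below 0. A further 544 lower genes rest on 1 probe set. Conversely, 190 genes that were not lower by their brightest probe set had another that was.

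**Figure D5:**
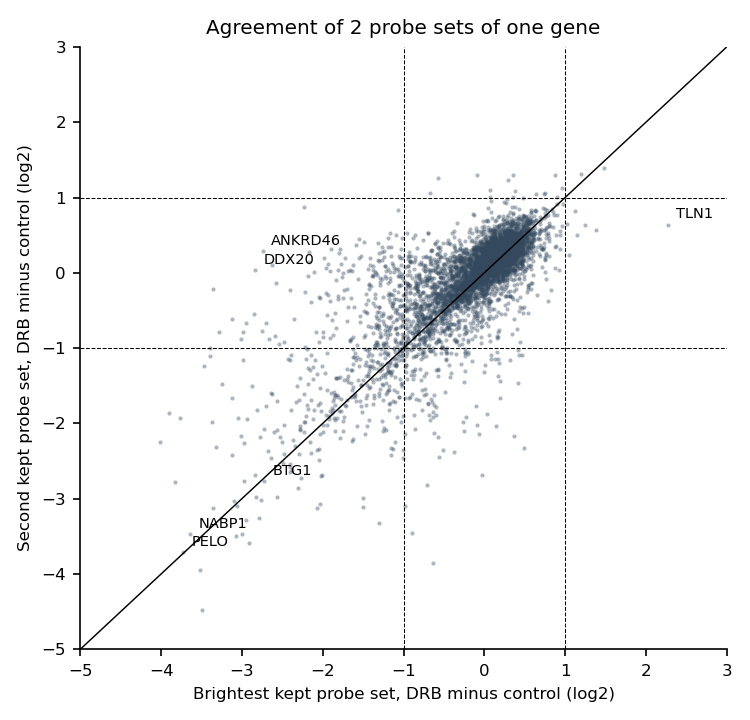
Difference between the DRB and control arrays (log2) in the second brightest (y axis) against the brightest kept probe set (x axis) of each gene, 5940 genes, with the line of equality and dashed lines at 2-fold. PELO, NABP1 and BTG1 lie on the line, whereas ANKRD46 and DDX20 are lower in 1 probe set only.

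In 159 genes 1 kept probe set was at least 2-fold lower while another was at or above the control. The widest such disagreements were in MCL1, FZD5, CNOT4, ANKRD46, FGFR1OP2 and DDX20. MCL1 had 4 probe sets between −4.13 and −2.07 and 1 at 0.45. The Wnt receptor FZD5 had probe sets at −3.07, −2.03, −0.03 and 0.08, and the deadenylase subunit CNOT4 at −2.23, −0.94 and 0.87. ANKRD46 lay at −2.74 and 0.29, and the helicase DDX20 at −2.84 and 0.03. FGFR1OP2 was near the control by its brightest probe set (0.05), and its lowest was at −2.83. Probe sets of a gene can match different 3′ ends, introns or transcripts, and which of these applies was not tested. The share of kept probe sets at least 2-fold lower, 8.12% over all 22927, was 11.2% among those without a suffix, 6.77% with the suffix a, 13.2% with s and 4.46% with x. These suffixes mark probes that match several transcripts of a gene or of related genes.

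Grouping symbols by their root, with no choice of function, gave 135 families with at least 10 kept genes, of which 43 had no gene at least 2-fold lower. The lowest medians were those of ZFP (−1.58, 7 of 10 lower), THAP (−1.18, 6 of 10), ZCCHC (−0.91, 3 of 10), RGS (−0.63), KCTD (−0.60, 3 of 14), CEP (−0.54, 5 of 32), ZBTB (−0.53, 9 of 27), UTP (−0.47, 4 of 10), ZNF (−0.46, 60 of 214) and SRSF (−0.46). Zinc finger, THAP and zinc knuckle proteins bind nucleic acids, whereas the ZFP root also takes in the RNA-binding ZFP36 genes. UTP genes encode subunits of the machinery that processes the small ribosomal RNA, in contrast to the ribosomal proteins, which stood near the control. UTP23 read 8.14 on the control and 5.14 on the DRB array, and THAP5 read 8.40 and 6.03; both were named after their values were seen. The highest medians were those of FKBP (0.39, 0 of 13 lower), ADAM (0.36), TSPAN (0.32), COL (0.31), GALNT (0.30), KRTAP (0.25), PARP (0.23), GPR (0.23), MYO (0.23) and IFT (0.22). ADAM proteases and tetraspanins are membrane proteins, collagens are secreted, and GALNT transferases act in the Golgi. Other families listed, such as KRTAP, PARP and IFT, are not covered by this description.

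Lower genes were not spread evenly over signal, which also depends on the probes of each set. Over 4 bins of kept genes, from the lowest to the highest mean of both arrays, 9.42%, 16.9%, 11.6% and 2.59% were at least 2-fold lower. Among the 500 genes with the highest control values 3 were lower. They are named because they make up the whole count: TOB1, MAT2A, which makes S-adenosylmethionine (11.30 and 8.75, with a mean of −1.18 ± 0.77 over 5 probe sets), and the helicase gene DDX3X (11.09 and 9.91, mean −0.45 ± 0.63 over 6). Of these, only TOB1 was lower by a like amount in all of its probe sets (−1.92 ± 0.05 over 2).

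The scale of the comparison rests on the normalization, which brings arrays to nearly one distribution, so that a loss shared by most transcripts would be reduced. The median signal was 4.87 on the control, 4.90 on the E. coli 83972 and 4.88 on the DRB array. The 12 probe sets of the poly-A RNA spiked into the samples were all higher on the DRB array, with a median of 0.69 (0.51 to 0.96), against 0.14 on the E. coli 83972 array (−0.31 to 0.29). Those of the hybridization controls had medians of 0.21 and 0.25. Setting each array's median over the poly-A spike-ins equal, which weighs them differently from the median of their differences, moved the median of all genes by −0.84 and the count of lower genes from 1126 to 3620, since it lowers every gene by the same amount. RNA quality differed little by the 3′ minus 5′ signal of the control probe sets, which was 0.08 on the control and 0.09 on the DRB array for GAPDH, and 1.98 and 1.83 for ACTB.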

How the data were processed

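Messenger RNA of 3 A498 cultures (control, E. coli 83972 and DRB) was measured on 1 Affymetrix 3′ array each. The deposited values are log2 probe-set signals, made by the authors with RMA and Partek, per the submitters' processing notes. Neither the versions nor how many arrays shared the normalization are given in the sources used here. RMA brings arrays to nearly one distribution (the sorted DRB and control values differed by at most 0.18) and compresses dim signals. Of 49386 probe sets the platform annotation gave 45259 exactly 1 symbol and 1327 several, and 2800 were not listed. Symbols of 45178 were updated through the Entrez identifier with RefSeq GRCh38.p14.

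Of several probe sets for a gene, the one with the highest mean over 3 arrays was used. This mean includes the DRB array, so the choice can depend on the difference itself. Kept were the 11121 of 18239 genes for which the mean of the control and DRB arrays was at least 4.88, the median over the whole table. A mean was used because a gene that passes a filter through 1 array alone has to differ. The log2 difference was counted from 1 in size (2-fold). Depth has no meaning for arrays, and no test could be made with 1 array per group. Differences, classes (94) and root families were computed with Python 3.11.15, pandas 2.3.3, NumPy 2.4.6 and statsmodels 0.14.6 (loess), plots with Matplotlib 3.10.9, and the calculation was tested on simulated data. The members and lists were chosen with earlier results of these data known. The cytokine list was corrected after its values were seen, since its pattern had taken in a receptor gene. The planned protein features were not used here.

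Genes named are the 10 lowest and 10 highest by the mean over kept probe sets, where 3 or more probe sets (2 where under 10 genes qualified) all passed 2-fold in one direction; up to 4 lowest and 2 highest kept members of each class described, with CDK9, CCNT1 and HEXIM1; and the 6 genes whose probe sets disagreed most. Alternatives were 4 other scalings, the mean over probe sets, plain-suffix probe sets only, and 4 other filters.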

Additional observations from a re-analysis of the deposited data

Results flagged for a closer look

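Control probe sets that no comparison of genes uses carried a signal above the control array. The poly-A spike-in probe sets had a median difference of 0.69 with DRB (12 of 12 higher), against 0.14 with E. coli 83972. The probe set for the 5′ end of 28S ribosomal RNA differed by 0.56 with DRB and by 0.58 with E. coli 83972, while the median of the 3 probe sets for 28S RNA was 0.21 and 0.08.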

How the results depend on the processing

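No paired analysis was possible because each group had 1 array, and for the same reason no array could be left out in turn. The count of genes at least 2-fold lower (1126) was 3620 with poly-A spike-ins set equal, 370 with plain-suffix probe sets only (11.7% of 3164 kept genes) and 481 with a filter at the 75th percentile (7.99% of 6017), and 972 to 1556 under the other alternatives. Of the 1126, 985 remained lower with quantile normalization and 915 with the mean over probe sets. The latter could end no call of the 544 lower genes with 1 kept probe set. Likewise, spike-in centring lowers every gene alike and could end no such call. The count of higher genes (15) was 1 with poly-A spike-ins, 5 with hybridization spike-ins, 8 with loess, 30 with quantile normalization and 6 with plain-suffix probe sets. The count of lower genes with all probe sets lower (236) was 145 without the filter and 33 with plain-suffix probe sets. The median of all genes moved by −0.84 with poly-A spike-ins, −0.23 with hybridization spike-ins and −0.11 with loess. Among classes whose median lay at least 0.2 from that of all genes, the side turned in 8 of 30 with plain-suffix probe sets, 2 of 40 with the 75th percentile filter and 0 of 44 under the others, where spike-in centring could turn none. With plain-suffix probe sets the difference turned positive in ANKRD46 (0.29), BCL2L13 (0.13) and CNOT4 (0.87). The cause of these shifts was not tested.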
